A study of Homo sapiens with 9 samples.

Results

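The genes described here are POGLUT1, 3 further enzymes that put sugars on Notch proteins and their relatives (POFUT1, POFUT2 and RFNG), and 5 of the Notch receptors and ligands that carry such sugars (NOTCH1, NOTCH2, NOTCH3, JAG1 and DLL1). They were selected by name, with the values of these data already known and POGLUT1 selected on its own ratio, so every ratio of a member to vehicle is given as a description and without a test. Of the 9 genes named, 7 were listed among the 9221 gene symbols of the deposited tables, and NOTCH3 and DLL1 were listed in neither table. The data are ribosome profiling counts, in which the mRNA fragments protected by ribosomes are sequenced, from Huh7 cells, a human hepatocellular carcinoma line. Cells were treated for 1 hr with 1.5 µM PF-06378503 (PF8503), with 1.5 µM PF-06446846 (PF846) or with vehicle, 0.5% DMSO, in 3 biological replicates per condition and 9 libraries in all. PF846 and PF8503 are related small molecules known to slow ribosomes on particular nascent chains, and the sample titles spell the number of PF846 differently from the design text.

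Notch receptors and their ligands are membrane proteins built from long rows of epidermal growth factor-like (EGF) repeats, and these repeats receive O-linked sugars in the endoplasmic reticulum. POGLUT1 attaches glucose to a serine and POFUT1 attaches fucose to a serine or threonine of such repeats, RFNG, a Fringe enzyme of the Golgi, extends the fucose, and POFUT2 adds fucose to thrombospondin type 1 repeats (TSR) instead. In Notch signaling a ligand such as JAG1 or DLL1 on one cell pulls on a receptor of its neighbor, the protease ADAM10 and then γ-secretase cut the receptor, and the freed inner part joins RBPJ in the nucleus to switch on genes such as HES1.

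Ribosomes stalled by these compounds are often, though not always, near the start of the coding sequence. The first 30 codons of each listed member are therefore shown, from the canonical transcript of GENCODE version 44 on GRCh38. Leucine codons, the main source of the hydrophobic run of a signal sequence, are in capitals. The sequences run 5′ to 3′ on the coding strand. The enzymes come first.
POGLUT1: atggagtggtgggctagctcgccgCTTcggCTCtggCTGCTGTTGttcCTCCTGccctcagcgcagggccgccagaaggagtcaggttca
POFUT1: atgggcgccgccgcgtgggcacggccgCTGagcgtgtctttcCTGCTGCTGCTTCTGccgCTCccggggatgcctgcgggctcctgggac
POFUT2: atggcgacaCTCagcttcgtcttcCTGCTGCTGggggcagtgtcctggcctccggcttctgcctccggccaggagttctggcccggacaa
RFNG: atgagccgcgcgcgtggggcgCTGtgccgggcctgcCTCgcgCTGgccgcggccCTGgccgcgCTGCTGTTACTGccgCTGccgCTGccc

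POGLUT1 (ENSG00000163389) lies on the plus strand at chr3:119468963-119494708, and the 90 bases shown come from exon 1 (chr3:119469022-119469106) and the first 5 coding bases of exon 2 (chr3:119469820-119469824). Those of POFUT1 (ENSG00000101346, plus strand) come from exon 1 at chr20:32207942-32208031, those of POFUT2 (ENSG00000186866, minus strand) from exon 1 at chr21:45287782-45287871, and those of RFNG (ENSG00000169733, minus strand) from exon 1 at chr17:82051677-82051766. All of these bases are coding and begin with the start codon. The receptors and the ligand follow.
NOTCH1: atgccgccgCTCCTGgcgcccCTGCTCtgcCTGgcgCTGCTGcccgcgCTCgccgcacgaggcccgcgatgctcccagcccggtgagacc
NOTCH2: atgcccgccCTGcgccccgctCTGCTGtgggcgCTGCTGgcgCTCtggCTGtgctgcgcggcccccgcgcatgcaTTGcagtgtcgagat
JAG1: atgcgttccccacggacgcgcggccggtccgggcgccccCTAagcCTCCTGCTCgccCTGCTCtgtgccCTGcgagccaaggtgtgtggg

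All 3 of these genes are on the minus strand, and in each the first 30 codons span exon 1 and the start of exon 2. The exon 1 parts are chr9:136545726-136545786 for NOTCH1 (ENSG00000148400), chr1:120069334-120069406 for NOTCH2 (ENSG00000134250) and chr20:10673450-10673530 for JAG1 (ENSG00000101384). The exon 2 parts are chr9:136544074-136544102, chr1:120029971-120029987 and chr20:10672998-10673006 in the same order.

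Each deposited table compares 1 compound with vehicle and gives, for each transcript, the authors' mean of normalized counts over the libraries of each condition. The counts were summed 3′ of the codon where the cumulative reads of treated and untreated cells diverged most, where that divergence was strong, and otherwise over the coding sequence less its ends. There are 9157 transcripts compared between PF8503 and vehicle, with a median mean signal of 397 normalized counts, and 8839 compared between PF846 and vehicle, with a median of 381. Only the means over libraries were used, so no replicate error, depth per library or interval can be given, and no difference below was tested against the spread between replicates. The central 95% of the log2 ratios of transcripts in the same class of mean signal is given instead, as a description. It describes the variation between transcripts and not the error of a transcript. Mean signal is the average of a transcript's vehicle and compound means, so a member's own change enters its class. Each table was cut into 10 classes of equal size. All 14 hepatocyte markers were listed, with means in vehicle, beside PF8503, of 212970 normalized counts for AFP, 148370 for ALB and 97160 for APOB. Of 10 markers of other cell types, 7 were listed in neither table. CD68, a macrophage marker, had means of 889 with vehicle and 1006 with PF8503, a log2 ratio of 0.18, and of 814 and 860 with PF846, a log2 ratio of 0.079. PECAM1, an endothelial marker, had 170 and 194, a log2 ratio of 0.19, then 156 and 160, a log2 ratio of 0.039. GFAP, an astrocyte marker, was listed beside PF846 alone, with 40.5 and 45.1, a log2 ratio of 0.15. The part of these signals in the members' ratios was not tested.

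POGLUT1, the protein O-glucosyltransferase, was the lowest of the members by ratio with both compounds. Its mean was 189 normalized counts with vehicle and 56.1 with PF8503, which is 29.6% of vehicle and a log2 ratio of -1.75. In the PF846 table the means were 178 with vehicle and 116 with PF846, which is 65.1% of vehicle and a log2 ratio of -0.62. The signal was thus lower than vehicle with both compounds and lower with PF8503 than with PF846. By log2 ratio POGLUT1 ranked 4 from the lowest of 9157 transcripts with PF8503 and 26 from the lowest of 8839 with PF846.

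Against transcripts of like signal, the ratio of POGLUT1 lay outside the central 95% with each compound. As POGLUT1 was selected on its ratio, nothing is read from its place in these classes. With PF8503 the 916 transcripts of its signal class, with mean signals of 92.4 to 145 normalized counts, had central log2 ratios of -0.40 to 0.35. POGLUT1 was the lowest of them, and the next lowest was at -1.66. With PF846 the 884 transcripts of its class had central log2 ratios of -0.29 to 0.28, and POGLUT1 was number 5 from the lowest, the lowest being at -1.45.

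**Figure D1:**
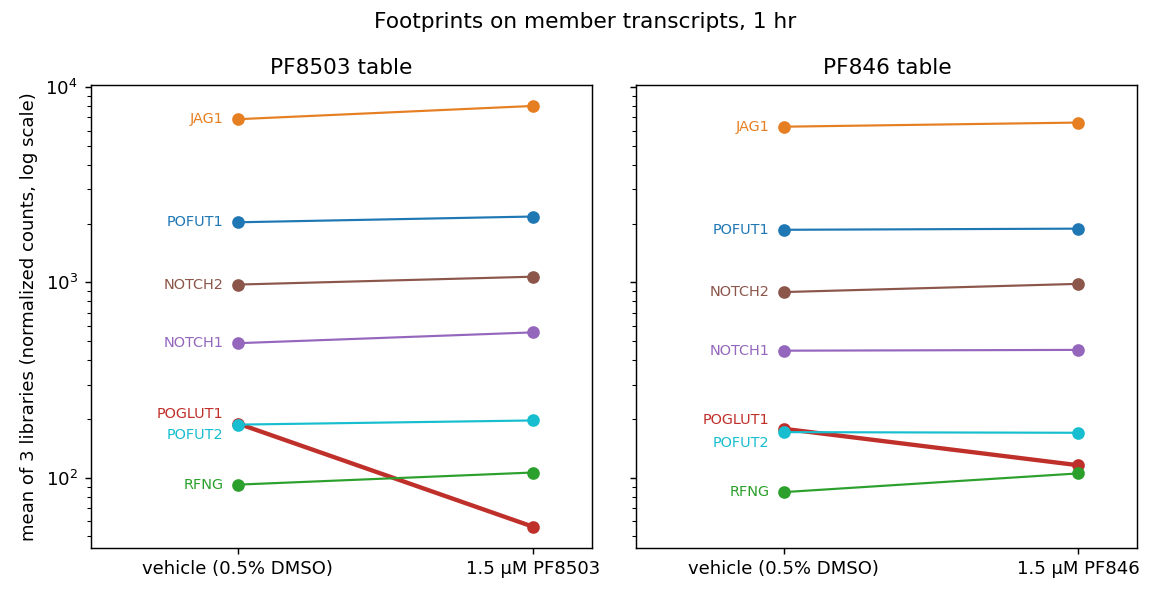
The authors' mean signal of each listed member in normalized counts (log axis) with vehicle and with compound, for PF8503 (left) and PF846 (right), 1 line per gene and each point a mean of 3 libraries with no error available. POGLUT1 goes from 189 to 56.1 with PF8503 and from 178 to 116 with PF846. The other 6 lines end at 99.2% (POFUT2 with PF846) to 125% (RFNG with PF846) of vehicle.

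POGLUT1 was also the only listed member whose counted region differed between the tables. Since vehicle is common to both comparisons, dividing a transcript's vehicle mean in one table by that in the other returns a fixed value, 1.09, wherever the same codons were counted. For POGLUT1 that ratio was lower by 0.038 on the log2 scale, so that the region of the PF8503 table held 97.4% of the vehicle reads of the region of the PF846 table. The other 6 members had 100% of them to the nearest percent. Of the 8775 transcripts in both tables, 134 (1.53%) had a different region. The part of the shorter region in the lower ratio of POGLUT1 was not tested.

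The share of transcripts past the same fold is given here as background. A log2 ratio of at least 0.5 in size (1.41-fold) was reached downward by 99 transcripts with PF8503 (1.08%) and upward by 22 (0.24%). With PF846 it was reached downward by 35 transcripts (0.396%) and upward by 7 (0.0792%). Of the 7 listed members, 1, POGLUT1, was lower by this fold with each compound and 0 were higher. As the members were selected with these ratios known, nothing is read from that count. The next lowest member was POFUT2, with a log2 ratio 1.83 above that of POGLUT1 with PF8503 and 0.61 above it with PF846.

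Among the other enzymes, POFUT1, which adds fucose to EGF repeats, had means of 2033 normalized counts with vehicle and 2176 with PF8503, a log2 ratio of 0.098. With PF846 its means were 1861 and 1886, a log2 ratio of 0.019. Both ratios lay inside the central 95% of transcripts of like signal, which was -0.20 to 0.19 with PF8503 and -0.13 to 0.14 with PF846. POFUT2, the fucosyltransferase for TSR, had nearly the same vehicle signal as POGLUT1, at 187 normalized counts beside PF8503, and was at 196 with PF8503, a log2 ratio of 0.071. With PF846 it was at 170 against 171 with vehicle, a log2 ratio of -0.011. Both ratios of POFUT2 lay inside the central 95% of its class, which was -0.34 to 0.31 with PF8503 and -0.27 to 0.21 with PF846.

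RFNG, the Fringe enzyme, had the lowest signal of the listed members. Its means were 92.1 normalized counts with vehicle and 106 with PF8503, a log2 ratio of 0.21, and 84.3 with vehicle and 105 with PF846, a log2 ratio of 0.32. The latter was the highest ratio of any member with PF846 and ranked 61 from the highest of 8839 transcripts. It still lay inside the central 95% of its class, which reached 0.34 at this low signal. With 5 classes of signal in place of 10, the central 95% ended at 0.31, and the ratio of RFNG with PF846 lay just above it. Its place inside or outside thus depends on the number of classes.

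The receptors had means at or above vehicle with both compounds. NOTCH1 was at 488 normalized counts with vehicle and 555 with PF8503, a log2 ratio of 0.18, and at 447 with vehicle and 451 with PF846, a log2 ratio of 0.014. NOTCH2 was at 975 with vehicle and 1070 with PF8503, a log2 ratio of 0.13, and at 893 with vehicle and 983 with PF846, a log2 ratio of 0.14. The ratio of NOTCH2 with PF846 was just above the central 95% of its class, which ended at 0.12, and the other 3 ratios of the receptors lay inside theirs. NOTCH2 shares near-identical sequence at its start with the NOTCH2NL genes. The authors kept only reads that aligned to a single position, so reads of shared stretches can be missing. The count of NOTCH2 is uncertain to that extent.

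JAG1, the ligand, had the highest signal of the members, at 6857 normalized counts with vehicle and 8015 with PF8503, a log2 ratio of 0.23. With PF846 it was at 6591 against 6276 with vehicle, a log2 ratio of 0.070. The ratio with PF8503 lay above the central 95% of the class with the highest signal, which was -0.28 to 0.17, and the ratio with PF846 lay inside its own. The remaining ligand DLL1 and the receptor NOTCH3 have no value, and the reason was not tested.

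**Figure D2:**
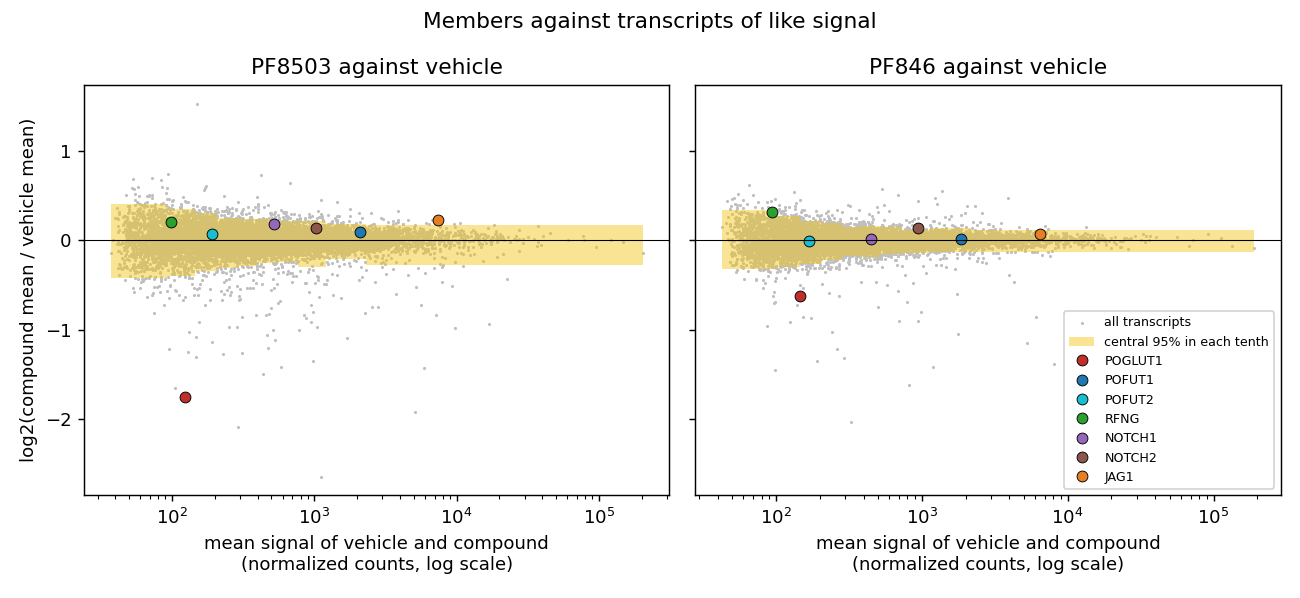
Log2 ratio of compound to vehicle mean against mean signal in normalized counts (log axis) for all transcripts (grey) and the 7 listed members (coloured), for PF8503 (left) and PF846 (right), with yellow bands for the central 95% of ratios in each of 10 classes of signal. POGLUT1 lies below its band at -1.75 and -0.62, JAG1 just above its band with PF8503 and NOTCH2 just above its band with PF846.

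Without POGLUT1, the 6 listed members had log2 ratios of 0.071 to 0.23 with PF8503, all above 0, with a median of 0.16. Over all transcripts 54.7% lay above 0 with PF8503, with a median of 0.013 and a central 95% of -0.32 to 0.28. With PF846 the 6 members had log2 ratios of -0.011 to 0.32, 5 of them above 0, with a median of 0.045, against 50.3% above 0 and a median of 0.00086 over all transcripts. None of the 6 reached the fold of 1.41 in either direction.

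The ratios with PF8503 moved with the GC content of the coding sequence. With the transcripts cut into 5 classes of GC content, from the class with the lowest (32.6% to 43.4%) to the class with the highest (60.0% to 79.7%), the median log2 ratio with PF8503 went from -0.059 to 0.091, and with PF846 from -0.014 to 0.015. The coding sequence of POGLUT1 is 45.1% GC, and that of the other 6 listed members is 53.7% (NOTCH2) to 66.8% (RFNG). Less the median of its own GC class, POGLUT1 stood at -1.73 with PF8503 and -0.62 with PF846. The other 6 members then stood at 0.023 (POFUT2) to 0.21 (JAG1) with PF8503. The part of GC content in the ratios of these 6 was not tested.

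Both compounds were used at 1.5 µM for 1 hr, so their means can be set side by side for the 7 listed members, with the constant ratio of the vehicle means taken out. The mean of POGLUT1 with PF8503 was lower than that with PF846 by a log2 ratio of -1.17, which ranked 31 from the lowest of 8775 transcripts. With each compound taken against the vehicle mean of its own table, the difference was -1.13. Both values still set different codons beside each other. For the other members this log2 ratio of PF8503 to PF846 was 0.17 for NOTCH1, 0.15 for JAG1, 0.082 for POFUT2, 0.078 for POFUT1, -0.0057 for NOTCH2 and -0.11 for RFNG. Both comparisons use the same vehicle libraries, and no interval can be given for any of the 7 differences.

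**Figure D3:**
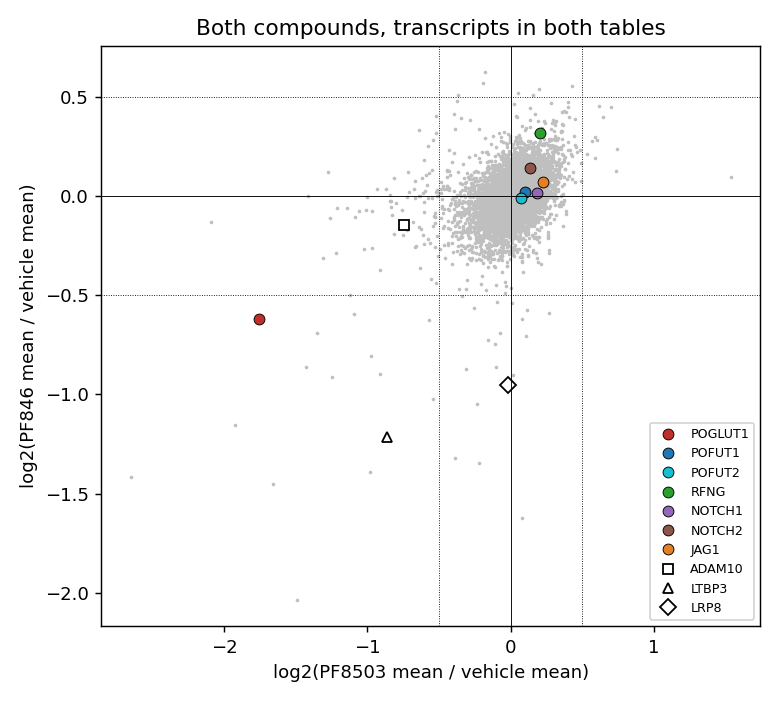
Log2 ratio to vehicle with PF8503 (x axis) and with PF846 (y axis) for the 8775 transcripts in both tables (grey), with the 7 listed members (filled circles) and ADAM10, LTBP3 and LRP8 (open symbols), and dotted lines at 0.5 in either direction. POGLUT1 is past the line with both compounds, LTBP3 likewise, ADAM10 with PF8503 and LRP8 with PF846, while both axes share the vehicle libraries.

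The vehicle signal was also divided by the length of the coding sequence less 20 codons. The codons counted are not known for a transcript counted 3′ of a divergence, and POGLUT1 had a different region in the 2 tables, so its value may be too low. In the PF846 table JAG1 had 5.24 normalized counts per codon and POFUT1 5.06, above the table's median of 0.844. POGLUT1 had 0.478, POFUT2 0.418, NOTCH2 0.364, RFNG 0.271 and NOTCH1 0.176, all below that median. This order is per length of coding sequence in the vehicle, with 33.8% of transcripts below POGLUT1 and 10.6% below NOTCH1. Whether neighbors in this order differ beyond the spread between libraries cannot be said from means.

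The N-termini of the members were compared by hydropathy on the Kyte-Doolittle scale, on which hydrophobic residues are positive. Over residues 2 to 30 the encoded protein of POGLUT1 had a mean of -0.16, above 60.8% of 9144 genes, whose median was -0.37. That was the lowest of the 7 listed members. JAG1 had 0.097, NOTCH1 0.57, POFUT2 0.59, POFUT1 0.85, NOTCH2 0.91 and RFNG 1.37, the last above 98.3% of genes. In a window of 9 residues POGLUT1 reached its peak of 2.57 at codon 15, within the run of leucine codons in the sequence above, and the window centred on codon 28 had a mean of -2.47. The peaks of the other 6 members were 2.61 (NOTCH1 and NOTCH2) to 3.21 (JAG1), at codons 8 to 21. POGLUT1 was the lowest of the 7 in both measures, but its peak was above that of 87.3% of 9124 genes, whose median was 1.41. The peaks of NOTCH1 and NOTCH2 were above 87.8%. The part of hydropathy in the ratios was not tested.

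**Figure D4:**
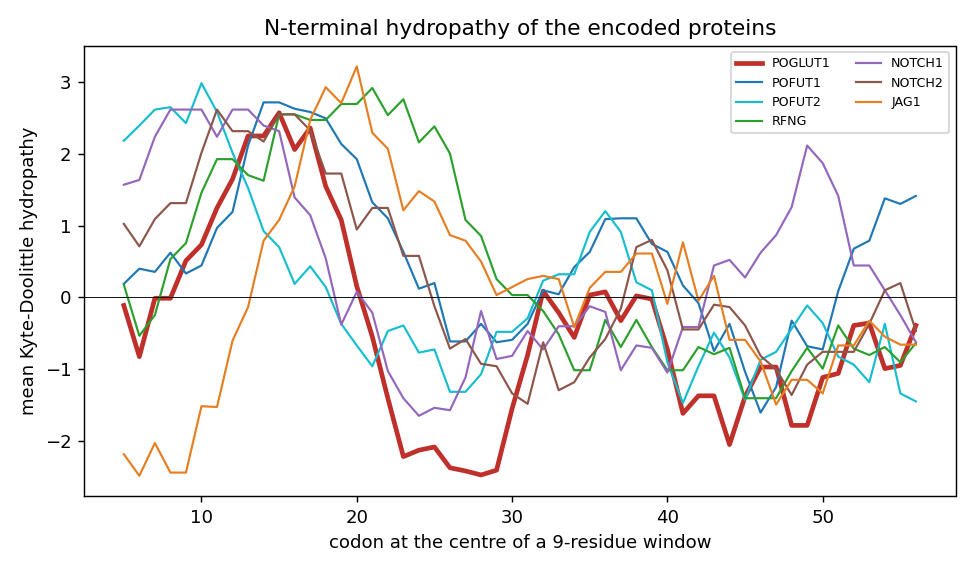
Mean Kyte-Doolittle hydropathy in a sliding window of 9 residues (y axis, scale units) against the codon at the window's centre (x axis) for the 7 listed members. All 7 have a hydrophobic peak within the first 21 codons, and POGLUT1 (thick line) has the lowest peak, 2.57 at codon 15. Around codon 28 POGLUT1 is the lowest of the 7, at -2.47, while JAG1 reaches -2.48 at codon 6.

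Leucine codons were counted over the first 30 codons as well. POGLUT1 had 7, against a median of 3 over all genes, with 92.1% of genes below 7. POFUT1 and JAG1 also had 7, NOTCH1 and NOTCH2 8, RFNG 10 and POFUT2 4. The part of the leucine count in the ratios was not tested.

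POGLUT1 was aligned over its whole length with POFUT1 and with 2 other glucosyltransferases. POGLUT1, of 392 codons, had 23.5% identical residues with POFUT1, of 388 codons, in a global alignment, and POFUT1 had 25.8% with POFUT2, of 429 codons. With KDELC1 (POGLUT2) and KDELC2 (POGLUT3), which glucosylate EGF repeats at another serine, POGLUT1 had 31.6% and 30.1% identical residues. No background of identity between unrelated proteins was computed, so kinship is not read from these shares. KDELC1 had means of 438 normalized counts with vehicle and 440 with PF8503, a log2 ratio of 0.0061, and of 401 and 378 with PF846, a log2 ratio of -0.083. KDELC2 had a log2 ratio of 0.080 with PF8503 (532 to 562) and 0.017 with PF846 (487 to 493). Neither KDELC1 nor KDELC2 was past the fold of 1.41 with either compound.

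The substrates were described by the consensus sequences for these sugars, counted in the encoded proteins. The O-glucose consensus of POGLUT1 was taken as cysteine, any residue, serine, any residue, proline or alanine, then cysteine. The O-fucose consensus of POFUT1 was taken as cysteine, any 4 residues, serine or threonine, then cysteine. In both, any residue stands for any but cysteine. NOTCH2 has 18 matches to the O-glucose consensus and 20 to the O-fucose consensus in 2471 codons, NOTCH1 has 17 and 22 in 2555 codons, and JAG1 has 4 and 13 in 1218 codons. NOTCH1 and NOTCH2 share 56.1% of residues. NOTCH3 and DLL1, which have no value, have 16 and 2 matches to the O-glucose consensus. At least 1 match to the O-glucose consensus was found in 42 of 9144 genes (0.459%) and to the O-fucose consensus in 373 (4.08%).

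The ratios of the genes with the O-glucose consensus are given as a description. Of the 12 listed genes of the members and lists that hold it, 0 were past the fold of 1.41 with either compound, and log2 ratios ran from -0.087 (CELSR2) to 0.25 (AGRN) with PF8503 and from -0.15 (CELSR2) to 0.16 (FBN1) with PF846, with medians of 0.12 and 0.022. Over all genes with a match, 1 of 41 was lower by this fold with PF8503, SERINC1, and 1 of 40 was higher with PF846, SRCAP, with medians of 0.038 and -0.021. Over all transcripts, 1.08% were lower and 0.24% higher by this fold with PF8503, and 0.396% and 0.0792% with PF846. Nothing is read from these counts, as the genes are few. SERINC1 and SRCAP were named after their values were seen. A match is one of letters and does not show that a protein has EGF repeats or carries the sugar.

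The other genes of the pathway are given by lists. Of 9 other glycosyltransferases of EGF repeats and TSR, 5 were listed and 0 were past the fold with either compound. Their log2 ratios ran from 0.0061 (KDELC1) to 0.25 (XXYLT1, a xylosyltransferase that extends O-glucose) with PF8503, with a median of 0.080. With PF846 they ran from -0.085 (GXYLT1, which adds the xylose before it) to 0.046 (XXYLT1), with a median of 0.012. GXYLT1 had means of 554 normalized counts with vehicle and 582 with PF8503, and of 507 and 478 with PF846. Of the 9 listed enzymes in the members and this list, only POGLUT1, which was selected on its own ratio, was past the fold. Over all transcripts 1.08% were lower by this fold with PF8503 and 0.396% with PF846. Nothing is read from this count or from those of the lists below.

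Of 11 genes that make or carry nucleotide sugars, the donors of these enzymes, 10 were listed and 0 were past the fold, with log2 ratios of -0.042 to 0.22 with PF8503 and -0.071 to 0.12 with PF846. UGP2, which makes UDP-glucose, the donor that POGLUT1 uses, had means of 2254 normalized counts with vehicle and 2188 with PF8503, and of 2063 and 2106 with PF846. UGDH, which oxidizes UDP-glucose, had 3931 and 3876, then 3598 and 3540. SLC35C1, the GDP-fucose carrier of the Golgi, had the highest ratio of the list with PF8503, at 0.22, and SLC35D2, another nucleotide sugar carrier, the lowest with PF846.

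Of 20 genes that process Notch or move it through the cell, 15 were listed, and 1, ADAM10, was past the fold with PF8503. ADAM10, the protease that cuts ligand-bound Notch, had a mean of 3529 normalized counts with vehicle and 2105 with PF8503, 59.7% of vehicle and a log2 ratio of -0.75. With PF846 it was at 2923 against 3231 with vehicle, 90.5% of vehicle and a log2 ratio of -0.14. Its counted region was the same in both tables. FURIN, which cuts Notch on its way to the surface, had log2 ratios of 0.18 with PF8503 (1602 to 1809) and 0.037 with PF846 (1466 to 1504), and NCSTN, a subunit of γ-secretase, had -0.026 (1251 to 1229) and -0.0026 (1145 to 1143). The medians of the list were -0.021 and 0.036, and its highest ratio was that of APH1A, another γ-secretase subunit, at 0.29 and 0.14.

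Of 16 nuclear effectors of Notch, 11 were listed beside PF8503 and 9 beside PF846, and 0 were past the fold. RBPJ, the DNA-binding partner of cleaved Notch, had means of 1116 normalized counts with vehicle and 1058 with PF8503, a log2 ratio of -0.077, and of 1021 and 1038 with PF846, a log2 ratio of 0.023. HES1, the target gene, was at 883 and 946, then 808 and 776, with log2 ratios of 0.099 and -0.058. The coactivator EP300 had log2 ratios of 0.032 (1540 to 1574) and 0.11 (1409 to 1516), and the corepressor CTBP1 had 0.062 (1311 to 1369) and 0.0080 (1200 to 1206). The highest ratio with each compound was that of HES4, at 0.33 and 0.11. None of the 7 other Notch ligands and receptor looked for, such as JAG2, DLL4 and NOTCH4, was listed.

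**Figure D5:**
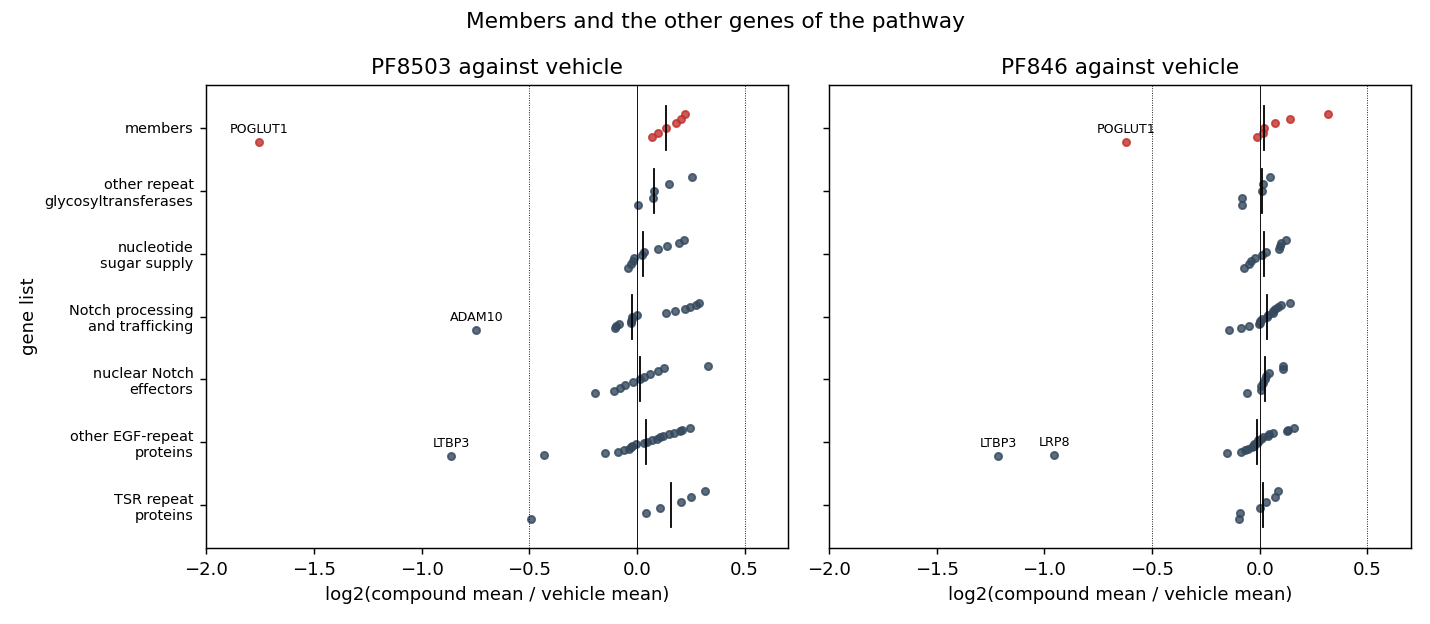
Log2 ratio of compound to vehicle mean for each listed gene of the members (red) and of 6 other lists (blue), with PF8503 (left) and PF846 (right), a black bar at each list's median and dotted lines at 0.5 in either direction. Past the lines are POGLUT1 with both compounds, ADAM10 with PF8503, LTBP3 with both and LRP8 with PF846, and the list medians lie between -0.021 and 0.16.

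Among 27 other secreted or membrane proteins with EGF repeats, 20 were listed. LTBP3, a latent TGF-β binding protein, was past the fold with both compounds, with means of 401 normalized counts with vehicle and 220 with PF8503, a log2 ratio of -0.86, and of 367 and 158 with PF846, a log2 ratio of -1.22. LRP8, a lipoprotein receptor, was past it with PF846, at 59.8 against 116 with vehicle, a log2 ratio of -0.95. With PF8503 LRP8 was at 146 against 148, but its region in that table held 117% of the vehicle reads of the region in the PF846 table, so different codons were counted. LTBP3 was lower with PF846 than with PF8503, the opposite order to POGLUT1 and ADAM10. The medians of the list were 0.040 and -0.012.

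The 3 proteins of this list with the highest vehicle signal had ratios on both sides of 0. NID1 had log2 ratios of -0.15 with PF8503 (6779 to 6117) and 0.0038 with PF846 (6206 to 6222). LRP1 had 0.21 (3605 to 4161) and 0.13 (3300 to 3617), and HSPG2 had 0.20 (3486 to 4002) and 0.043 (3191 to 3287). These are matrix or receptor proteins that pass through the endoplasmic reticulum as Notch does.

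The first 30 codons of the 3 list genes past the fold are shown for comparison with those of POGLUT1, with leucine codons in capitals and all 3 genes on the minus strand. Their first 30 codons lie at chr15:58749480-58749534 (exon 1) and chr15:58717693-58717727 (exon 2) for ADAM10, in exon 1 at chr11:65557870-65557959 for LTBP3 and in exon 1 at chr1:53327823-53327912 for LRP8.
ADAM10: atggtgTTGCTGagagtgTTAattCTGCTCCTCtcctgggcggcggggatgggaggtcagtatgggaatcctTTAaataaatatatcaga
LTBP3: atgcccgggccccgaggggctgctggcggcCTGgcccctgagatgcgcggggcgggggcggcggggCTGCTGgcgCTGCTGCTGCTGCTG
LRP8: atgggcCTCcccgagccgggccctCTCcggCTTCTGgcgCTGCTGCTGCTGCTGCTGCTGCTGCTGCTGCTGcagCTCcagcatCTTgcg

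Leucine codons among these 30 numbered 7 in ADAM10, 8 in LTBP3 and 17 in LRP8, against 7 in POGLUT1. The mean hydropathy of residues 2 to 30 was 0.64 for ADAM10, 0.86 for LTBP3 and 1.53 for LRP8, all above the -0.16 of POGLUT1. The peak window of 9 residues was at codon 6 in ADAM10 (3.04), codon 30 in LTBP3 (3.80) and codon 18 in LRP8 (3.80), against codon 15 in POGLUT1 (2.57).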

How the data were processed

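Ribosome-protected fragments were sequenced from 3 libraries for each of 3 conditions. The authors aligned reads with Bowtie to UCSC canonical transcripts (GENCODE version 24, GRCh38), left out 10 codons at each end, kept transcripts with more than 30 counts, and ran DESeq. No version of either tool is given in the sources used here. Per the file headers, the deposited signal columns bear the names that DESeq gives to a condition's mean of counts divided by size factors. The deposited tables also hold the authors' fold changes and p-values, which were not used. No column holds a single library, so precision is unknown.

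Computed here were log2(compound mean / vehicle mean) without a pseudocount, ranks, 10 classes of mean signal, and counts at 0.5. A vehicle ratio that departed by over 0.002 (log2) from the constant was read as another counted region. The log2 ratio and the step for the counted region were run on simulated means without noise, where the true values were set. That checks the code and not the precision. The ranks, classes and counts were not checked in this way. Symbols were matched to GENCODE version 44 canonical coding sequences (9150 of 9221, 99.2%), which may differ from the authors' transcripts. Identity is the share of the shorter protein (BLOSUM62, gap open 11, extend 1). No test was run, for want of replicate values.

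The members and lists were chosen with earlier results of these data known. Named were all members, genes of each list at 0.5 or more in size with either compound, the 3 with the highest vehicle mean of each list, and the 5 transcripts nearest to POGLUT1 in both log2 ratios, of which 1 is not reported here. Extremes of a list and those said to be so were named after their values were seen. Alternatives were other scalings, a pseudocount, other folds, a minimum mean, another tolerance, 5 classes of signal in place of 10, and centring on the medians of 5 GC classes, the last chosen after seeing the data. Python 3.11.15, numpy 2.4.6, pandas 2.3.3, matplotlib 3.10.9 and biopython 1.88 were used.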

Additional observations from a re-analysis of the deposited data

How the results depend on the processing

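Of 73 recomputed values, 70 moved by less than 0.1 on the log2 scale or, for counts of members, did not move. With a pseudocount of 10 normalized counts the log2 ratio of POGLUT1 with PF8503 was -1.59. With PF846, 2 members were past the fold at a log2 ratio of at least 0.25 (POGLUT1 and RFNG) and 0 at a log2 ratio of at least 1. Division by column sums, median centring and centring on GC classes gave POGLUT1 log2 ratios of -1.77 to -1.73 with PF8503, and these and the pseudocount gave -0.62 to -0.58 with PF846. The 48 recomputed values of the other members lay between -0.017 and 0.32. Among the 73 values, the limits of the signal classes were those of POGLUT1 alone. With 5 classes in place of 10, the ratio of RFNG with PF846 went from inside to just above the central 95% of its class. Annotation of a newer version, means without library values and the low vehicle signal of POGLUT1, POFUT2 and RFNG limit the precision. No paired analysis was possible because the deposited tables hold means over replicates and no value of a single library. Leaving out each replicate was not run for the same reason.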

Other observations

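The transcripts whose pair of log2 ratios was nearest to that of POGLUT1, over the 2 comparisons and 8775 transcripts, included genes of other pathways. PCBP2, an RNA-binding protein, was at a distance of 0.405, with log2 ratios of -1.43 with PF8503 and -0.86 with PF846. DAD1, a subunit of the oligosaccharyltransferase of the endoplasmic reticulum, was at 0.409, with -1.35 and -0.69. CTBS, a lysosomal chitobiase, was at 0.544, with -1.31 and -0.31, and PCBP1, a relative of PCBP2, was at 0.559, with -1.92 and -1.15. The counted region differed between the tables for DAD1, CTBS and PCBP1, as it did for POGLUT1. The vehicle signal of CTBS in the PF8503 table (209 normalized counts) was close to the 189 of POGLUT1, and those of PCBP2 (8575) and PCBP1 (8066) were far higher. PCBP1 and PCBP2 are paralogs, and the counts of both are uncertain where they share sequence. The likeness rests on 2 values per transcript that share the vehicle libraries.

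TSR proteins, the substrates of POFUT2, were listed for 6 of 13 genes, and 0 were past the fold. ADAMTS1, a protease, was nearest to it with PF8503, at 999 normalized counts against 1402 with vehicle, a log2 ratio of -0.49, and was at 1348 against 1284 with PF846, a log2 ratio of 0.071. THBS1, the thrombospondin with the highest signal of the list, had log2 ratios of 0.11 (9802 to 10564) and 0.0022 (8972 to 8986), and ADAMTS9 had 0.043 (112 to 115) and -0.090 (102 to 96.1). The medians of the list were 0.16 with PF8503 and 0.016 with PF846. LTBP1, a relative of LTBP3, had log2 ratios of -0.43 with PF8503 and 0.13 with PF846, with different codons counted in the 2 tables, and was named after its values were seen.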
